A study of Oncorhynchus mykiss with 3 samples.

Results

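The known miRNAs of rainbow trout eggs that belong to families numbered 700 or higher were described here. They were chosen by name alone, as every entry of the known miRNA table whose number after miR- or mir- was 700 or more, with both arms and all sequences. The rule took 73 of the 575 known names, or 73 of 880 names when the predicted miRNAs were included, and these 73 names covered 40 families and 134 unique sequences. The eggs (Oncorhynchus mykiss, from a commercial population) had been held in the body cavity of the females until 1 day (D1PO), 7 days (D7PO) or 14 days (D14PO) after ovulation, and the labels give survival rates of 91.8%, 73.4% and below 50.0%. The study itself reports these values as fertilization rates, scored by cleavage of embryos. Each age was sequenced as 1 small RNA library from RNA pooled over females, and the labels name no genotype or agent for any group. The tables list miRNAs alone, so the label of the tissue was not checked against marker genes. Each sequence carries a single read number, with no library given for it, so none of the values below belongs to a single age, and the ages were not compared. The numbers were taken as reads over the 3 libraries together, although nothing at hand says so. Intervals are exact 95% intervals, Poisson for reads and Clopper-Pearson for shares. Those for reads and shares of reads cover counting error only. Those for shares of sequences treat the listed sequences as independent draws, which nested or near-identical forms of a family are not.

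A miRNA is cut from a hairpin in its precursor RNA, first in the nucleus by Drosha and DGCR8 and then in the cytoplasm by Dicer. Dicer leaves a duplex of the 5p and the 3p arm, and usually 1 arm is kept in an Argonaute protein, where bases 2 to 8 from its 5′ end, the seed, pair with messenger RNAs. miRBase numbers families roughly in the order in which they were submitted. The low numbers therefore hold families found early and shared by many animals, while the numbers from 700 hold many families first described in fish, such as the zebrafish families miR-722 to miR-737, beside families first named in mammals or in other species. In a fish egg, miRNAs are part of the RNA that the mother stores before embryonic transcription starts.

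The sequences that set the reads of this group are shown first, because the names alone hide what was read. The most abundant family, miR-7551, was read almost only as pieces of a single 20 nt sequence, with the 10 bases that all the pieces share in capitals.
omy-miR-7551-3p, 8596 reads: gggggCCUGAGUCCUucuga
omy-miR-7551-3p, 17341 reads: ggggCCUGAGUCCUucuga
omy-miR-7551-3p, 22275 reads: gggCCUGAGUCCUucuga
omy-miR-7551-3p, 28083 reads: CCUGAGUCCUucuga
omy-mir-7551-5p, 21449 reads: gggggCCUGAGUCCU
omy-mir-7551-5p, 15794 reads: gggggCCUGAGUCCUu
The most abundant miR-7641 sequences lay end over end in the same way along a 37 nt stretch, with their shared 7 bases in capitals.
omy-mir-7641-5p, 6854 reads: cgccugaucucGUCCGAU
omy-mir-7641-3p, 2553 reads: ucGUCCGAUcucggaagcuaagcaggg
omy-mir-7641-5p, 5045 reads: cGUCCGAUcucggaagcuaagc
omy-mir-7641-3p, 6268 reads: GUCCGAUcucggaagcuaagcagggu
The main sequences of the miR-7550 arms were nearly the same sequence and ended in CCA, which is in capitals.
omy-miR-7550-5p, 4105 reads: auccggcucgaaggaCCA
omy-miR-7550-3p, 1614 reads: uuccggcucgaaggaCCA

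Beside these stood names whose main sequences had a position and, save the 16 nt omy-miR-1306-5p, were 20 to 24 nt long. Some of these names, from families with many reads or with a close neighbour in the genome, are shown with the seed in capitals. Other names of the same families can differ, as omy-mir-1306-5p had a 16 nt main sequence with no position.
omy-miR-2188-5p, 20451 reads: aAGGUCCAaccucacauguccu
omy-miR-2188-3p, 4067 reads: gCUGUGUGaggucggaccuauc
omy-miR-725-3p, 1172 reads: uUCAGUCAcuguuucugguagu
omy-miR-725-5p, 210 reads: aGCUAGAAaccuugccugagau
omy-miR-724-5p, 1413 reads: uAAAGGGAauuugcgacuguu
omy-miR-731-5p, 638 reads: aAUGACACguuuucucccgga
omy-miR-731-3p, 40 reads: cCCCGGGAauuucgugucagca
omy-miR-1444-5p, 1189 reads: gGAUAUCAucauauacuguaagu
omy-miR-1444-3p, 96 reads: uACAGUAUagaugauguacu
omy-miR-3618-5p, 70 reads: gAUUUCCAauaauugagacagu
omy-mir-3618-3p, 115 reads: uGUCUACAuuaaugaaaagaac
omy-miR-1306-5p, 179 reads: cCCCUGCAaacgucca
The last set holds sequences of 15 to 19 nt that were listed with no position in the trout genome. They are the 3 with most reads outside miR-7551 and miR-7550, and omy-mir-7550-3p, a name in the RT-qPCR of the study.
omy-mir-8162-5p, 4390 reads: cAGAUCUGuuugugcuguc
omy-mir-2184-3p, 1959 reads: uGUCUUACuuguagg
omy-miR-2189-3p, 1097 reads: uUUGAAUCagcugug
omy-mir-7550-3p, 146 reads: gAGAUAGCugguucu

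The 73 names held 191461 reads (95% interval 190604 to 192321), which was 2.49% (2.48 to 2.50) of the 7684127 reads of known miRNAs. That total is larger than the reads that the study reports as mapped to miRBase, summed over all its libraries. The column may therefore count some reads more than once, and the counting intervals may be too narrow. The median name had 115 reads, with a range from 10 to 76295, against a median of 343 for the 502 remaining known names. Most reads were in few families. miR-7551, miR-2188 and miR-7641 held 84.2% (84.1 to 84.4) of the reads of the group, and miR-7551 alone held 113579 reads or 59.3% (59.1 to 59.5). These shares count nested sequences in full, so families with many of them may be overstated. In miR-7551, miR-731, miR-725 and miR-728, no sequence had more reads than a shorter sequence contained in it. In omy-miR-728-3p the shorter sequence had 98 reads, and those that contain it had 84 and 14. Whether the reads of a sequence include those of longer ones was not tested. Of the 73 names, 15 reached 1000 reads, 26 had from 100 up to 1000 and 32 had fewer than 100, and 25 of the last had fewer than 50. The lowest value was 10 reads, and the authors removed sequences of low copy number before deposit, so a name missing from the table may have been present below that limit.

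**Figure D1:**
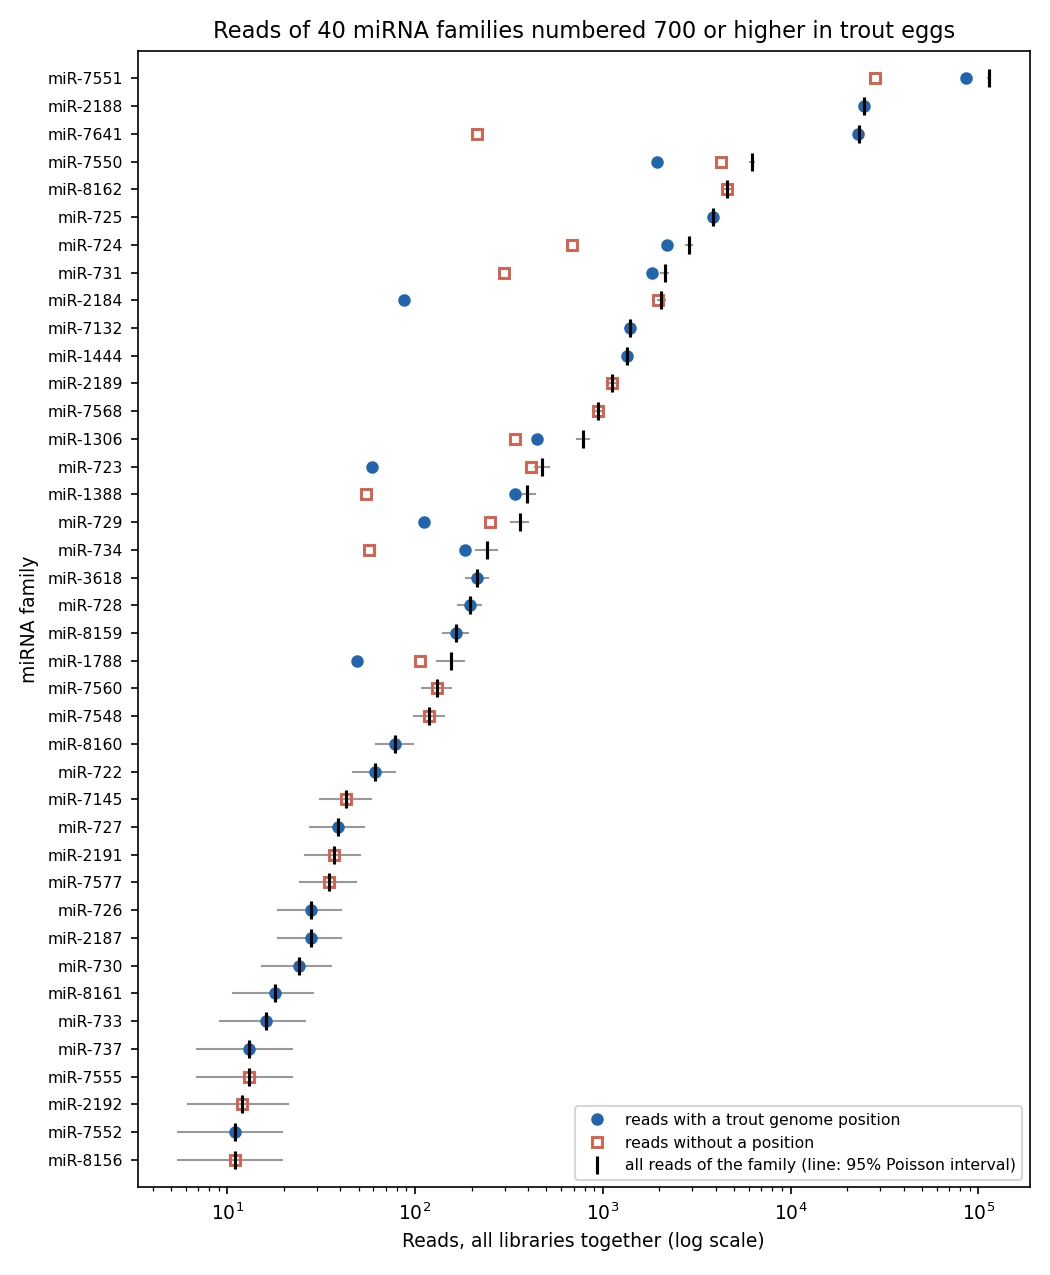
Reads of the 40 families on a log axis, all libraries together: black ticks are all reads of a family with their 95% Poisson interval, blue circles the reads listed with a genome position and open squares those without. The reads ran from 11 in miR-7552 and miR-8156 to 113579 in miR-7551, and 11 families had open squares only.

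The 12 families with at least 1000 reads were miR-7551, miR-2188 with 24518 reads, miR-7641 with 23151, miR-7550 with 6206, miR-8162 with 4596, miR-725 with 3849, miR-724 with 2876, miR-731 with 2134, miR-2184 with 2046, miR-7132 with 1388, miR-1444 with 1345 and miR-2189 with 1122. In this order the intervals of miR-2184 (1958 to 2137 reads) and miR-731 (2044 to 2227) overlapped, as did those of miR-7132 (1316 to 1463) and miR-1444 (1274 to 1419). The families from 100 to 944 reads were miR-7568, miR-1306, miR-723, miR-1388, miR-729, miR-734, miR-3618, miR-728, miR-8159, miR-1788, miR-7560 and miR-7548. The other 16 families had 11 to 78 reads, namely miR-8160, miR-722, miR-7145, miR-727, miR-2191, miR-7577, miR-726, miR-2187, miR-730, miR-8161, miR-733, miR-737, miR-7555, miR-2192, miR-7552 and miR-8156. miR-722, which is known from zebrafish neutrophils, had 61 reads in these eggs. The zebrafish families miR-726, miR-730, miR-733 and miR-737 had 28, 24, 16 and 13 reads, whose counting intervals overlap in part.

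The group was read at other lengths than the remaining known miRNAs. Of its 134 sequences, 73 or 54.5% (45.7 to 63.1) were 20 to 24 nt long, the usual length of a mature miRNA, against 79.0% (76.3 to 81.6) of the 925 remaining sequences. Counted by reads, the difference was wider, with 26.4% of reads at 20 to 24 nt against 97.5%. Sequences under 18 nt held 39.0% of the reads of the group and 1.06% of the remaining reads. The low value by reads rested largely on miR-7551, miR-7641 and miR-7550. Without these 3 families, a choice made after their values were seen, 75.9% (75.6 to 76.3) of the remaining 48525 reads were at 20 to 24 nt. That was still below 97.5%, and 24518 of these reads were of miR-2188, all at that length. So were all reads of miR-725, miR-7132 and miR-1444, and most of miR-724 and miR-731. However, miR-8162 and miR-2189 had none at that length, and miR-2184 had 87 of 2046.

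The note of the table states that a chromosome given as 0 marks a sequence that mapped to miRBase and not to the trout genome. Such sequences were 36 of 134, or 26.9% (19.6 to 35.2), against 194 of 925, or 20.97% (18.4 to 23.7), of the remaining known sequences, and the 2 intervals overlapped. By reads the shares were further apart, at 22.9% against 1.59%. A single sequence, CCUGAGUCCUucuga of miR-7551 with 28083 reads, made up most of the 43824 reads without a position. This sequence lies whole inside a sequence that has a position, and so does 1 other, of omy-mir-1306-5p. The 2 together held 64.8% (64.4 to 65.3) of the reads without a position, so a missing position did not always mean that the letters were missing from the genome used. In 17 families every sequence had a position and in 12 families some had. In 11 families, with 7063 reads, none had, and of these miR-8162 and miR-2189 had most reads.

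**Figure D2:**
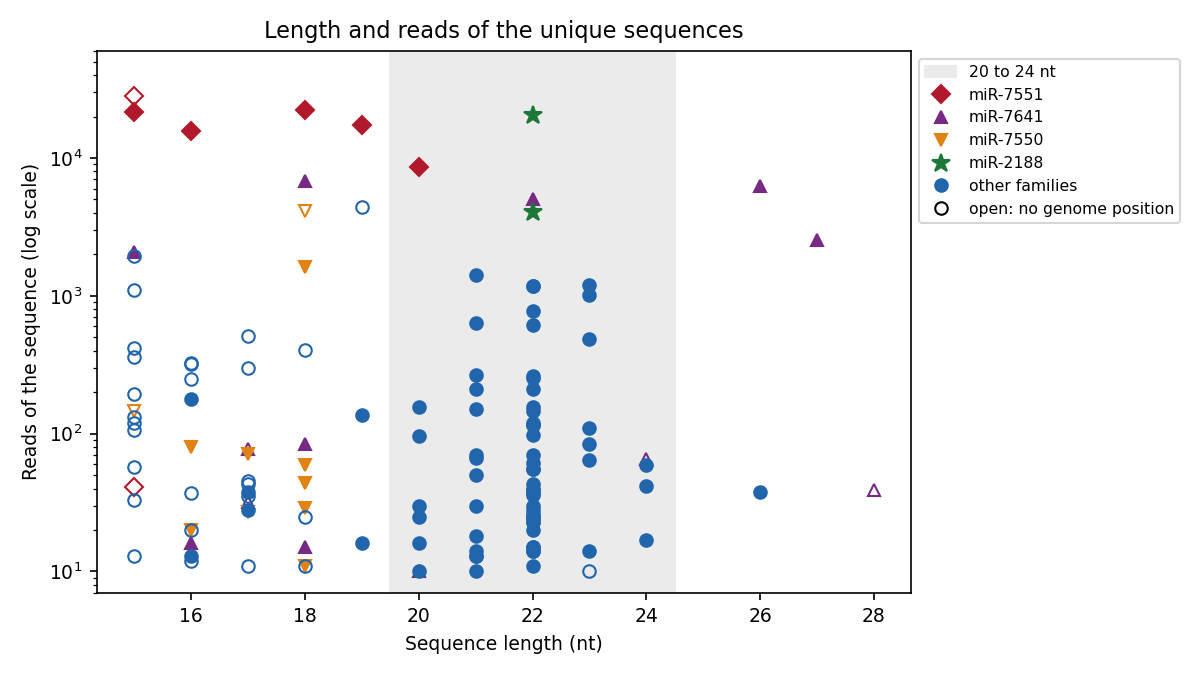
Each point is 1 of the 134 sequences, with its length in nt on the horizontal axis and its reads on a log axis. Open symbols have no genome position, and the grey band marks 20 to 24 nt. The 6 sequences of miR-7551 with most reads lie between 15 and 20 nt and the 2 of miR-2188 at 22 nt, while most sequences under 18 nt outside the named families are open.

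Length and position both went with the spelling of the name. In the table, 43 names are spelled with miR and 30 with mir. Of the 84 sequences under miR names, 77.4% (67.0 to 85.8) were 20 to 24 nt long and 5.95% (1.96 to 13.3) had no position. Of the 50 sequences under mir names, 16.0% (7.17 to 29.1) were of that length and 62.0% (47.2 to 75.3) had no position. The same was seen in the remaining known miRNAs, where 11.1% of the sequences of miR names and 59.3% of those of mir names had no position. The link between spelling and position was thus not particular to the high numbers. The mir spelling itself was commoner in the group, with 37.3% (29.1 to 46.1) of sequences against 20.4% (17.9 to 23.2) of the remaining ones. By reads it held 37.2% against 1.39%. Most of these reads of the group were under omy-mir-7551-5p (37284) and the omy-mir-7641 names (12029 and 11122), so few families set that share. Some of the remaining sequences carry neither spelling and still count in the shares. The sources used here do not state what the lower-case spelling stands for. For 19 of the 30 mir names the table also held a miR name of the same family, and in 11 of these the main mir sequence shared no run of 8 bases with any sequence of the miR names.

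omy-mir-2184-3p is such a name. It had 1959 reads of a 15 nt sequence with no position, whereas omy-miR-2184-3p had 20 reads of a 22 nt sequence, and the longest run the main sequences shared was 6 bases. omy-mir-731-5p, with 297 reads, shared no more than 5 bases with any sequence of the miR-731 names, and omy-mir-723-5p, with 416 reads, shared 8 bases with omy-miR-723-5p, which had 59. omy-mir-724-1-5p was different. Its main sequence gCGACUGUuuaucaa had 361 of its 689 reads and no position, and it shared a run of 9 bases with omy-miR-724-5p, which ends in those bases. Adding reads over a family can therefore join sequences with little in common beyond the number. This does not hold for all, as 8 of the 19 mir names shared a run of 8 bases or more, up to 20 in omy-mir-7132-5p. An exact run also misses near copies broken by 1 substitution, as in omy-mir-1788-3p, whose run was 7 bases.

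omy-miR-7551-3p had 76295 reads and omy-mir-7551-5p 37284, which placed them 17th and 31st among the 575 known names. The name promises the opposite arms of a hairpin, but 6 of the 7 sequences lie inside the same 20 nt, and these 6 held 113538 of the 113579 reads. The 4 sequences that reach its 3′ end were filed as 3p and held 76295 reads, and the 2 that start at its 5′ end and stop earlier were filed as 5p and held 37243. The 2 arm names thus counted the same stretch of RNA, cut at different ends. The 3p sequences are nested, from 28083 reads in the shortest to 8596 in the longest. These sums may therefore count a read more than once. The interval listed for it spans 36 bases, on chrUn, plus strand, 637473748 to 637473783, and the 22275 reads of the 18 nt sequence were placed elsewhere, on the minus strand of chrUn from 3977308 to 3977349. The seventh sequence had 41 reads and no position. The build of the genome behind all positions is named in no source used here.

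omy-mir-7641-5p had 12029 reads and omy-mir-7641-3p 11122. The 4 sequences shown above lie in 1 interval, on chrUn, minus strand, 355469711 to 355469767, and held 20720 reads or 89.5% (89.1 to 89.9) of the family. They overlapped along the 37 nt, and the 5p sequence with 5045 reads lies whole inside the 3p sequence with 2553. Their lengths were 18, 27, 22 and 26 nt. Another sequence of the 3p name, cAGGGUCGggccugu, had 2091 reads at a second interval of chrUn, minus strand, 1103715538 to 1103715599. As background, the human entry numbered miR-7641 is known to share its sequence with 5S ribosomal RNA. The trout sequences were not compared with ribosomal RNA here, so whether these reads came from it was not tested. The authors removed matches to other RNA families before deposit.

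miR-7550 had 6206 reads under 3 names, and these fell into unlike kinds. The 10 sequences of omy-miR-7550-5p and omy-miR-7550-3p, with 4273 and 1787 reads, all ended in gaaggaCCA, an end that no other known and no predicted sequence had. The main sequences of the 2 arms were of equal length and differed by the substitution U1A, counted from the 5′ end and written from the 3p to the 5p sequence. The 5p sequence with 4105 reads had no position, so 67.7% (66.5 to 68.9) of the 6060 reads under these names were not placed. Mature transfer RNAs carry CCA at their 3′ end, added after transcription. Whether these sequences came from a transfer RNA was not tested. Over the whole group 13 of 134 sequences or 9.70% (5.27 to 16.0) ended in CCA, against 11 of 925 or 1.19% (0.60 to 2.12) of the remaining sequences, and 10 of the 13 were those of miR-7550.

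The third miR-7550 name, omy-mir-7550-3p, had 146 reads (123 to 172) of a single 15 nt sequence with no position. It shared at most 3 bases in a row with the sequences of the other 2 names. The study used it for RT-qPCR, and the primer given for it, gagatagctggttct, has the same letters as this sequence with t for u. The primer thus matches this 15 nt RNA and not the CCA-ended sequences filed as omy-miR-7550-3p, which had 1787 reads. The primer list also held omy-mir-2184-3p, and that primer, tgtcttacttgtagg, matches the 15 nt sequence with 1959 reads.

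miR-2188, a family known from fish, frogs and birds, was the most abundant one read as a usual pair of arms. omy-miR-2188-5p had 20451 reads (20172 to 20733) in a single 22 nt sequence, and omy-miR-2188-3p had 4067 (3943 to 4194), also in a single sequence of 22 nt. The 5p arm thus held 83.4% (82.9 to 83.9) of the reads of the hairpin, which lies on chrUn, minus strand, 320952448 to 320952536. Its name ranked 57th of the 575 known names. The main sequences of the arms paired with a computed energy of -26.6 kcal/mol over 15 base pairs.

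Across the group, 19 hairpins were read under both arm names. In 5 of them the sequences of the 2 arms shared a run of 8 bases or more, so that the arms were not separate: miR-7551, miR-7550, both miR-7641 hairpins, and miR-731 through 1 sequence. The other 14 shared at most 6 bases, and their main arms paired with energies from -27.2 to -4.9 kcal/mol, with a median of -18.6. In 9 of the 14 the 5p arm had more reads and in 5 the 3p arm. The counting interval left out 50% for 7 of the former and 4 of the latter, and included it for miR-3618, miR-730 and the smaller miR-1388 hairpin. These arm totals sum nested sequences in full, such as those of omy-miR-1788-3p with 25 and 10 reads. The shares and these counts of hairpins may therefore depend on reads counted more than once.

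**Figure D3:**
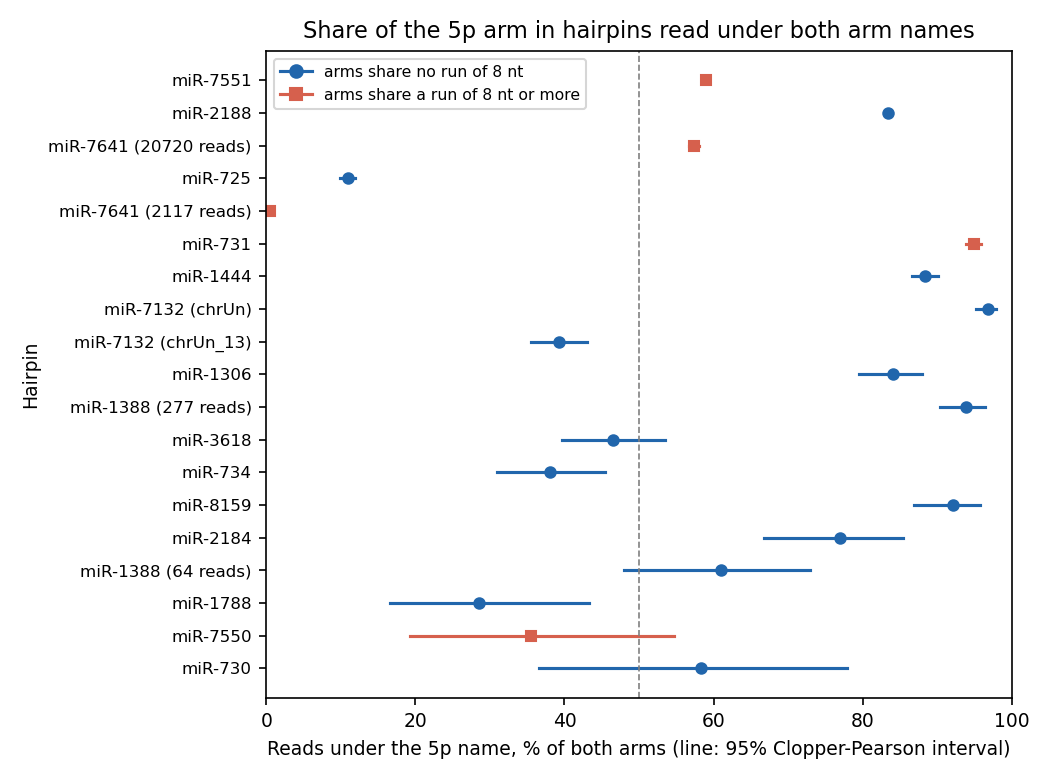
Share of reads under the 5p name in each of the 19 hairpins read under both arm names, ordered by reads from the top, with 95% Clopper-Pearson intervals and a dashed line at 50%. Blue circles are the 14 hairpins whose arms share no run of 8 bases, from 10.9% in miR-725 to 96.8% in the miR-7132 hairpin on chrUn, and red squares are the 5 whose arms do.

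miR-725, a zebrafish family, was read mainly from the 3p arm, with 3429 reads against 420 on the 5p arm, so that the 5p share was 10.9% (9.94 to 11.9). Its 3p name held a pair of sequences of equal length and nearly equal reads, 1172 and 1171, which differed by C9U, just past the seed. A 23 nt form with 1022 reads, uUCAGUCAuuguuucugguaguu, and another with 64 carried the same seed. The seed of miR-725-3p was thus the same in all 4 sequences. The sequence with 1171 reads is contained in that with 1022, and the 5p sequences, with 210 reads each, are nested. Some reads may therefore be counted more than once, and the 5p share depends on this. Whether they were was not tested. omy-miR-724-5p was read in 2 forms from chrUn, plus strand, 718121799 to 718121883. The form with 1413 reads starts 1 base later than that with 774, uUAAAGGGaauuugcgacuguu, and the shift moves the seed.

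miR-1388 had 2 hairpins on the minus strand of chrUn. In the hairpin from 696090874 to 696090969 the 5p arm had 260 reads and the 3p arm 17, a 5p share of 93.9% (90.4 to 96.4). In the hairpin from 1087128384 to 1087128479 the reads were 39 and 25, a share of 60.9% (47.9 to 72.9), and the intervals of these shares did not overlap. However, the 3p sequence with 25 reads is contained in the 3p sequence with 17, so 3p reads cannot be given to 1 hairpin by sequence. The difference between these shares therefore depends on how the 3p reads were assigned. The miR-7132 hairpins differed more. On chrUn, minus strand, 963810883 to 963811000, the 5p names had 690 reads and omy-miR-7132a-3p 23, a 5p share of 96.8% (95.2 to 97.9). On chrUn_13, plus strand, 1646801 to 1646862, omy-miR-7132b-5p had 265 and omy-miR-7132b-3p 410, a share of 39.3% (35.6 to 43.1).
The 5p shares of miR-7132 depend on how reads of near copies were divided, or on whether they were counted under more than 1 name. In the latter case the 690 reads on chrUn would hold repeats, and the 5p share there would be too high. Which of these holds was not tested. A sequence of omy-miR-7132a-5p with 267 reads is contained in 1 of omy-miR-7132b-5p with 146, both sequences of omy-mir-7132-5p (157 and 151 reads) are contained in the other sequence of omy-miR-7132b-5p with 119, and the remaining differences were A10U and U22C. The 3p arms were not contained in each other, and their totals of 23 and 410 do not rest on such a division.
omy-miR-7132a-5p, 267 reads: gACUUGGUcaaagcuccucag
omy-miR-7132b-5p, 146 reads: gACUUGGUcaaagcuccucagc
omy-mir-7132-5p, 151 reads: gACUUGGUcuaagcuccucag
omy-miR-7132a-3p, 23 reads: uGAGAAGUuuggaacaaguaaa
omy-miR-7132b-3p, 253 reads: uGAGGCGUuuagaacaaguuca
The seeds were the same in the 5p sequences and differed between the 3p sequences.

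The smaller hairpins with separate arms covered both directions. The 5p share was 92.1% (86.9 to 95.7) in miR-8159, with 152 and 13 reads, and 77.0% (66.8 to 85.4) in miR-2184, with 67 and 20. It was 38.04% (31.0 to 45.5) in miR-734, with 70 and 114, and 28.6% (16.6 to 43.3) in miR-1788, with 14 and 35. In miR-730, with 14 and 10 reads, the interval ran from 36.6% to 77.9%, and an arm preference was not detectable at this depth. miR-1788 had the strongest computed pairing of the 14, at -27.2 kcal/mol with 19 base pairs, and miR-8159 the weakest, at -4.9 kcal/mol with 8. omy-miR-212-5p was listed 1879 bases from miR-2184 on the opposite strand.

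Hairpins of the group lay within 10 kb of another known miRNA on the same strand in 4 family pairs, and within 10 kb of no predicted miRNA. The names in the closest pair are omy-miR-1444 and omy-miR-451. miR-1444 lies on chrUn_2, plus strand, 9311758 to 9311831, and miR-451 starts 53 bases after its end, at 9311885. At this place omy-miR-451-5p, of a red blood cell miRNA, had 169068 reads and omy-miR-1444-5p 1189 (the 3p arm 156), a 5p share of 88.4% (86.6 to 90.1) for the latter. The name goes against what was read. miRBase uses its number for a plant family, while the 3p and 5p sequences printed above are those known as miR-144 in vertebrates, which lies beside miR-451 in the genomes of fish and mammals. The table holds 0 known names of miR-144. The deposited name is kept here, and this family was taken up by its number alone.

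The second pair is the miR-462 and miR-731 cluster of bony fishes, which is known to respond to low oxygen and to viral infection. omy-miR-462a lies on chrUn_9, plus strand, 28002164 to 28002222, and miR-731 from 28002347 to 28002435, 124 bases further on. omy-miR-462a-5p had 1232 reads here and omy-mir-462a-3p 30, and omy-miR-731-5p had 1744 and omy-miR-731-3p 93. The 1744 reads of omy-miR-731-5p sum 3 nested sequences of 638, 617 and 489 reads, so some reads may be counted more than once. These sequences start at the same base and differ at the 3′ end alone, so all carried the seed AUGACAC. The 5p share of miR-731 was 94.9% (93.8 to 95.9). Of the 93 reads filed as 3p, 38 belong to a 26 nt sequence, aAUGACACguuuucucccggauugcu, that begins with the 5p sequence, so the reads of the 3p arm proper were 40 and 15 in sequences that differ by C2A, inside the seed.

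The third pair is miR-3618 and miR-1306, both of which lie in the transcript of DGCR8, the RNA-binding partner of Drosha, in human. In trout they were listed on chrUn_6, minus strand, miR-3618 from 10998764 to 10998820 and miR-1306 from 10998423 to 10998491, with 272 bases between them. Their reads were of the same order, 215 and 308 at these hairpins. miR-3618 was even between its arms, with 100 reads on the 5p and 115 on the 3p arm, a 5p share of 46.5% (39.7 to 53.4). miR-1306 had 259 and 49, a share of 84.1% (79.5 to 88.0). The 259 reads sum a 16 nt sequence of 179 reads and the 22 nt sequences of 55 and 25 reads that contain it. Some reads may therefore be counted more than once, and the share depends on this. The remaining reads of miR-1306 were not at this hairpin. They were 136 reads of gGGCACCAccaccaccacc, filed as omy-mir-1306-3p in an interval of 26 bases on chrUn_14, and 342 reads of omy-mir-1306-5p with no position, of which 322 were gGGCACCAccaccacc, the same sequence 3 bases shorter. The arm names of these disagree although the letters agree.

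The fourth pair is miR-727 and miR-728, known from zebrafish, on the minus strand of chrUn. omy-miR-727-5p had 39 reads (485641401 to 485641492) and omy-miR-728-3p 98 reads (485638802 to 485638893), with 2507 bases between the hairpins. A further sequence of omy-miR-728-3p, also with 98 reads, was placed on chr_8, minus strand. It is contained in both sequences of the chrUn hairpin, which had 84 and 14 reads. These may therefore be the same reads counted again, which was not tested.

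**Figure D4:**
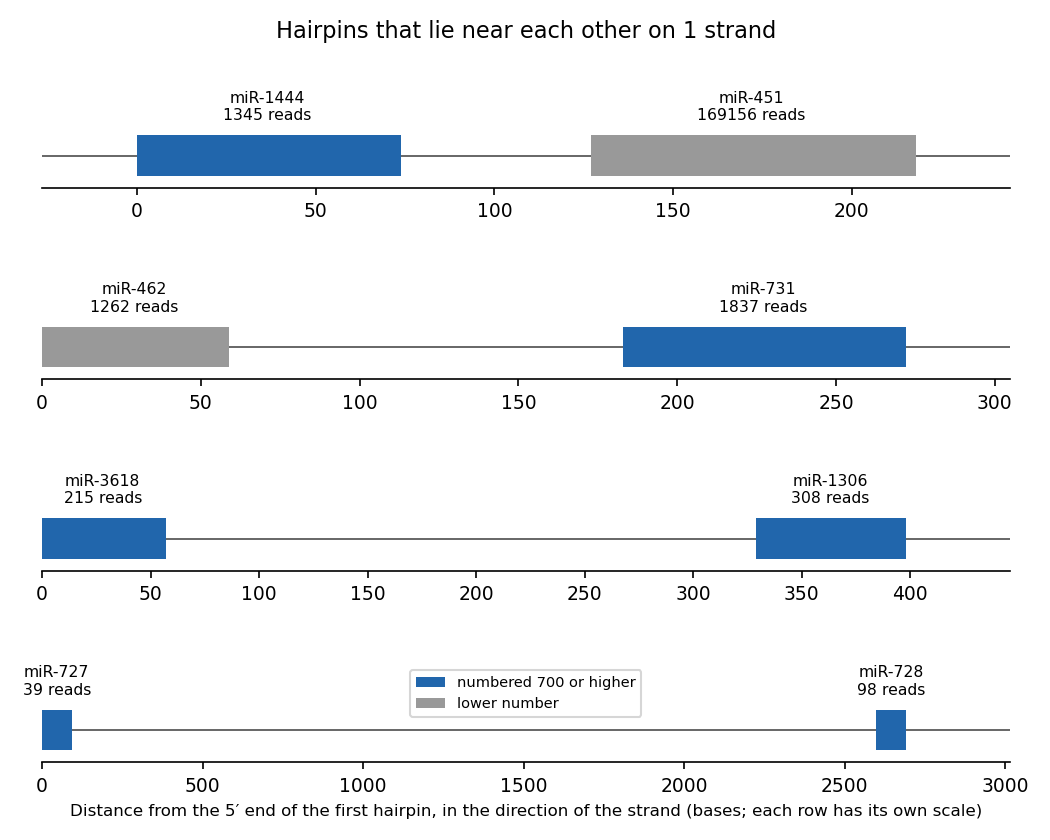
The 4 pairs of hairpins within 10 kb on the same strand, drawn to scale along the strand, with distance in bases from the 5′ end of the first hairpin, a scale of its own for each pair and the reads at each hairpin above it. Blue hairpins belong to families numbered 700 or higher and grey ones to lower numbers. miR-1444 with 1345 reads stands before miR-451 with 169156, miR-462 with 1262 before miR-731 with 1837, miR-3618 with 215 before miR-1306 with 308, and miR-727 with 39 before miR-728 with 98.

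Intervals listed for hairpins were shorter in this group. Their median length over the 98 placed sequences was 62 bases, against 78 over the 731 remaining placed sequences. Under 45 bases were 9 of 98 or 9.18% (4.29 to 16.7), against 3 of 731 or 0.410% (0.085 to 1.19). All 9 belonged to miR-7551, miR-7550 and miR-1306, and several of them shared 1 interval. They are thus not independent, as the confidence intervals assume, and the share is set by these few families. The shortest spanned 20 bases, for sequences of miR-7550 at 2 places, on chrUn_17, plus strand, 40416134 to 40416153, and on chrUn_4, plus strand, 16509160 to 16509179, which is too short to hold both arms of a hairpin. Sequences made of a repeated unit of 1 to 4 bases were 3 of the 134, with 954 reads, in omy-mir-7568-5p and omy-mir-7145-3p, and 9 of the 1059 sequences of all known miRNAs, with 2318 reads. The main sequence of the former, cUGUCUGUcugucuguc, had 508 reads, and that of the latter, cAUACAUAcauacauac, had 43, and neither had a position.

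Many miRNAs begin with U, a base that the Argonaute protein favours. Of the group, 45 of 134 sequences or 33.6% (25.7 to 42.2) began with U, against 45.9% (42.7 to 49.2) of the remaining sequences. Among placed sequences of 20 to 24 nt the shares were 38.03% (26.8 to 50.3) and 42.9% (39.1 to 46.8), which overlapped. Counted by reads over all lengths, the shares were far apart, at 8.07% (7.95 to 8.19) in the group and 84.6% in the remaining known miRNAs. No sequence of miR-7551 or miR-2188 began with U, and of the 4 miR-7641 sequences with most reads only that with 2553 did. These 3 families held 84.2% of the reads of the group, so the low value by reads rested largely on them.

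The main sequences of the 73 names had 69 distinct seeds. Over all 134 sequences, 7 seeds were shared with another family or with a predicted miRNA. AACACUG is the seed of omy-mir-8160-3p (28 reads) and of sequences of omy-miR-200a-3p, omy-miR-200b-3p and omy-miR-200c-3p, a family known from epithelia, which had 6770, 4776 and 41 reads with that seed. ACAGCGC was shared by omy-miR-730a-3p with 10 reads and omy-miR-460-3p with 192. AGGACUG was shared by omy-mir-1388-5p with 45 reads and omy-mir-23a-1-3p with 1317, and GGACUGU by omy-miR-1388-5p and omy-mir-101b-5p. The form of omy-miR-1444-3p that starts 1 base earlier, with 60 reads, shared UACAGUA with omy-miR-101b-3p. UGUCUGU was shared by omy-mir-7568-5p and omy-mir-214-5p, and AAAGCAU by omy-mir-1788-3p with 106 reads and the predicted omy-miR-nov-156-5p and omy-miR-nov-157-5p with 57 and 38. A shared seed is a match of letters, and no target was examined.

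Names of the group overlapped each other in sequence but no name outside it. A sequence was contained in, or differed at 1 position from, a sequence of another name in 20 pairs from 8 families, and in all 20 both names were members. Beside those described, omy-miR-8160-3p with 50 reads and omy-miR-8161-3p with 18 differed by A6G, which lies in the seed, so these sequences are told apart by that base alone. Within names, 43 had 1 sequence and 30 had more, and 11 pairs of sequences of equal length in 9 names differed by 1 base, in the seed for 2 pairs.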

How the data were processed

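The authors extracted total RNA from eggs of each age, pooled it over females and sequenced 1 small RNA library per age. With ACGT101-miR they took out adapters, rare sequences and those that matched messenger RNA, repeats or non-miRNA families, and searched what was left against miRBase. The deposited values are read counts, 1 number for each unique sequence, in 1 column that names no library. The authors quantile-normalized reads for their own comparison of ages. Whether the deposited column was normalized, whether a read could count under more than 1 sequence, and the genome build are not given in the sources used here. Stated methods cap sequences at a shorter length than some in the table.

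Reads were summed by name and family. Sequences on 1 strand whose listed intervals overlap were taken as 1 hairpin, and RNAduplex gave the pairing of main arm sequences. Intervals were tested on simulated counts and hairpin grouping on a small made-up set, while the sequence searches were not tested. The planned comparison between ages could not be made. Families were named in full, and names with 1000 or more reads, both arms, a neighbour within 10 kb, an RT-qPCR primer or a sequence shared with another name were given values. The members, lists and this rule were chosen with earlier results of these data known. Alternatives were tried on reads, position, length, family number, spelling and hairpin distance. Python 3.11.15, pandas 2.3.3, numpy 2.4.6, SciPy 1.17.1, matplotlib 3.10.9 and ViennaRNA 2.7.2 were used.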

Additional observations from a re-analysis of the deposited data

How the results depend on the processing

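Of 57 values recomputed under an alternative, 27 did not pass the limits set, which were a factor of 1.5 for a count, the 95% interval for reads and shares, and, for the median reads per name, the quartiles over names (35 to 416 reads), a wide limit. Within them, names fell from 73 to 49 with placed sequences alone and 51 with numbers from 1000, hairpins from 19 to 13 with miR spellings alone, and the median of 115 reads moved between 76.5 at 20 to 24 nt and 302.5 with sequences of 50 or more reads. A further 2 values were fixed by construction and are not given. With sequences of 50 or more reads alone, 46 names, 190008 reads, 2.48% of known reads, 59.8% of reads in miR-7551 and 8 hairpins read under both arm names were left. With placed sequences alone, the values were 147637 reads, 1.96% of known reads, 72.4% of sequences at 20 to 24 nt and 57.9% in the top family. With sequences of 20 to 24 nt alone, they were 42 names, 50570 reads, 0.688% of known reads, 2.74% of sequences without a position and 48.5% of reads in the top family, which was then miR-2188. With numbers from 1000, they were 181148 reads, 2.36% of known reads and 62.7% in the top family. Without miR-7551, they were 77882 reads, 1.01% of known reads and 31.5% in the top family. With miR spellings alone, they were 43 names, 120299 reads, 1.60% of known reads, 5.95% of sequences without a position, 77.4% at 20 to 24 nt and 63.4% in the top family. Without miR-7551, miR-7641 and miR-7550, chosen after seeing the data, they were 48525 reads, 0.631% of known reads, 67.0% of sequences at 20 to 24 nt and 50.5% in the top family. No paired analysis was possible because an age is 1 library and no library has its own column. Names of 10 to 50 reads have wide counting intervals, and no value has an error between samples.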
